A study of Mus musculus with 14 samples.

Results

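The genes described here encode the proteasome: every gene of the array whose name is Psma, Psmb, Psmc, Psmd or Psme followed by a digit. The rule found 66 probes of 43 genes, out of 41174 probes and 27745 gene names on the array, and used no measured value. Each gene was read from 1 probe, the brightest. Of the 43 genes, 42 were well above background on all 14 arrays and none was saturated on any. The exception, Psma8, the alpha subunit of testis, was well above background on 1 array and was not tested. Psmc3ip meets the rule by its letters but encodes a factor of meiotic recombination and no proteasome subunit, so it is named apart. The thymus subunit Psmb11 is on the array under an older name, outside the rule, and its 2 probes were well above background on 4 and 0 of 14 arrays.

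The proteasome degrades proteins that carry ubiquitin. Its barrel-shaped core has outer alpha rings and inner beta rings, and 3 beta subunits cut peptides: Psmb5, Psmb6 and Psmb7. Interferon gamma is known to induce a substitute for each, Psmb8 for Psmb5, Psmb9 for Psmb6 and Psmb10 for Psmb7, and also Psme1 and Psme2, which together form a cap that opens the core. A core with the 3 substitutes is called the immunoproteasome. It is constitutive in many leukocytes, and the peptides it makes feed MHC class I, the molecules that cytotoxic T cells read.

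The RNA came from tumours of B16F10, a mouse melanoma line, grown in C57BL/6 mice and hybridised to one-colour Agilent arrays. After tumours had grown, mice were given cytotoxic T lymphocytes (CTLs) that recognise gp100, a melanocyte protein, and the day of this transfer is day 0. The CTLs carry CD90.1 and were activated in culture before transfer. In 1 arm, mice received CTLs with an antibody against interferon gamma (anti-IFNg), and in another CTLs with control rat IgG. Both were injected on days 0 and 2 and have arrays of days 3, 5 and 7, each with RNA pooled from 3 tumours. A further arm received CTLs alone and the last was untreated, with arrays of days 1, 3, 5 and 7, each pooled from 4 tumours. All 14 arrays therefore come from whole tumours with whatever host cells they held, and each arm has 1 array a day. Between 48.9% and 59.7% of spots were well above background, with the CTL array of day 5 the lowest. All 10 melanocyte markers were well above background on every array. Levels below are log2 of the processed signal relative to the 75th percentile of the same array. Differences are log2 differences, and errors are standard errors (SE) from 1 limma fit of all 14 arrays. Arms are compared over n = 3 days, and a comparison with day 1 also rests on 1 array per arm of that day. A gene passed the test at a Benjamini-Hochberg adjusted limma p under 0.05 over all 16693 genes tested.

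Psmb8, the substitute for Psmb5, had levels of 6.85, 5.96 and 5.46 in CTL tumours on days 3, 5 and 7, against 0.55, 1.92 and 0.29 in untreated tumours. Psmb9, the substitute for Psmb6, had 7.38, 6.40 and 5.61 in CTL tumours, against 0.77, 2.06 and 0.82 in untreated tumours. Psmb10, the substitute for Psmb7, had 7.75, 6.89 and 6.06 in CTL tumours, against 3.94, 4.32 and 4.19 in untreated tumours. In all 3 genes the CTL arrays of these days lay above every untreated array, day 1 included, without overlap. The share of all genes that separate in this way is not given here. The lowest CTL value of Psmb8, Psmb9 and Psmb10 fell on day 7, and untreated tumours of day 5 stood above those of days 3 and 7. The mean difference was 5.17 ± 0.37 for Psmb8, 5.25 ± 0.39 for Psmb9 and 2.75 ± 0.34 for Psmb10, or 36.0-fold, 38.0-fold and 6.74-fold. The limma adjusted p was 0.000123, 0.000142 and 0.00127 for Psmb8, Psmb9 and Psmb10. Among 16693 genes ordered by this difference, Psmb9 was number 36 from the top, Psmb8 number 41 and Psmb10 number 351.

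The activator genes were also higher. Psme1 had levels of 7.15, 6.62 and 5.70 in CTL tumours on days 3, 5 and 7, against 4.41, 4.52 and 4.33 in untreated tumours. Psme2 had 7.56, 6.88 and 6.26 in CTL tumours, against 4.82, 4.98 and 4.68 in untreated tumours. Both genes rose, by 2.07 ± 0.25 for Psme1 and 2.07 ± 0.24 for Psme2, or 4.20-fold each, with limma adjusted p of 0.00110 and 0.000941. These 5 were the only members called higher in CTL tumours. Of all genes tested, 10.3% were called higher and 21.5% lower, and the median difference over all genes was -0.10. Leaving out day 5 left 3 of the 5 past the threshold, with Psmb10 at 2.84 (adjusted p = 0.0550) and Psme1 at 2.06 (adjusted p = 0.0573).

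**Figure D1:**
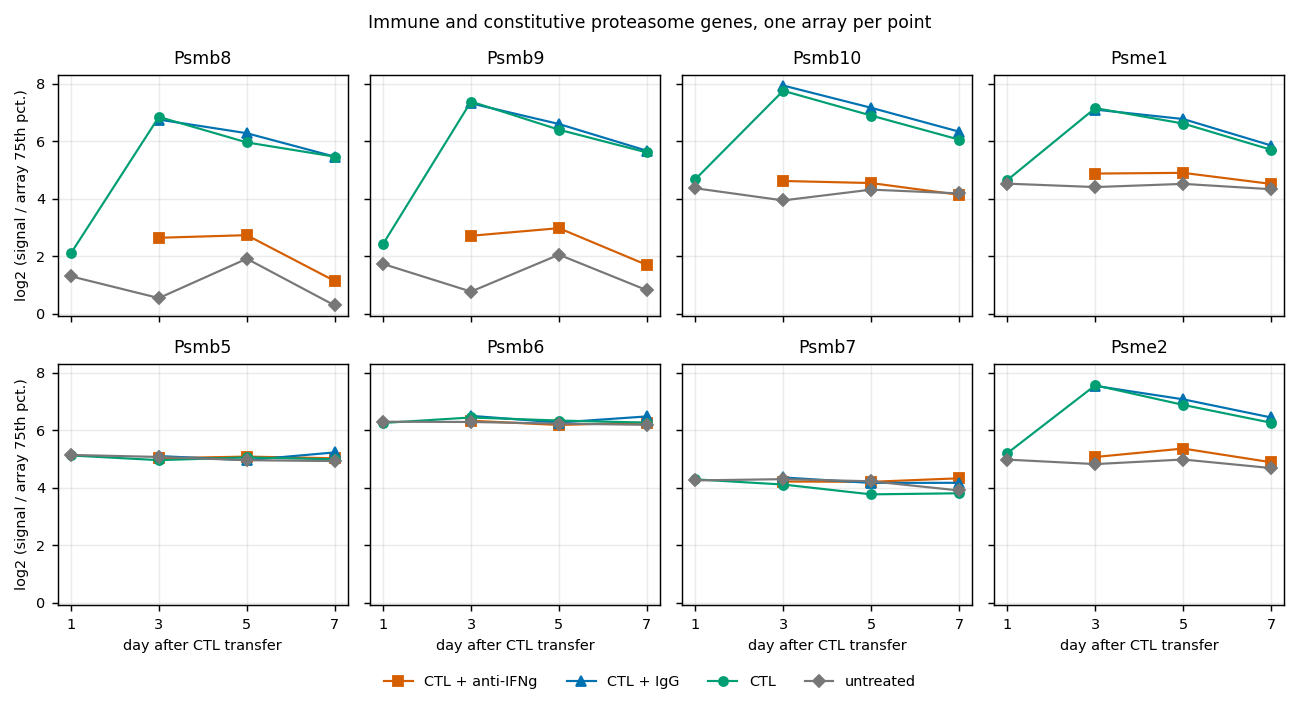
Level (log2 signal over the array's 75th percentile) of 8 proteasome genes by day after CTL transfer; each point is 1 array and lines join the arrays of an arm. CTL and CTL + IgG arrays of days 3 to 7 stand above untreated and CTL + anti-IFNg arrays in Psmb8, Psmb9, Psmb10, Psme1 and Psme2, while the arms lie close together in Psmb5, Psmb6 and Psmb7.

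The 3 catalytic subunits that are replaced were not called. Psmb5, which has the chymotrypsin-like activity, had levels of 4.96, 5.05 and 4.99 in CTL tumours on days 3, 5 and 7, against 5.07, 4.96 and 4.93 in untreated tumours. Over all 14 arrays and all arms its level ranged only from 4.93 to 5.23, while that of Psmb8 ranged from 0.29 to 6.85. Psmb6, the caspase-like subunit, had 6.44, 6.34 and 6.26 in CTL tumours, against 6.29, 6.23 and 6.19 in untreated tumours. Psmb7, the trypsin-like subunit, had 4.11, 3.77 and 3.81 in CTL tumours, against 4.30, 4.23 and 3.91 in untreated tumours. The differences were 0.02 for Psmb5 (95% confidence interval -0.21 to 0.24), 0.11 for Psmb6 (-0.09 to 0.32) and -0.25 for Psmb7 (-0.52 to 0.03). None of the 3 passed the test, with limma adjusted p of 0.915 for Psmb5, 0.354 for Psmb6 and 0.146 for Psmb7. The sign of the small Psmb5 and Psmb6 differences turned under another background correction, to -0.28 and -0.21, and that of Psmb5 also under other settings.

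Whether a substitute and its counterpart changed unequally was tested on their difference within each array. Psmb8 minus Psmb5 was higher in CTL than in untreated tumours by 6.41 on day 3, 3.95 on day 5 and 5.11 on day 7, with a mean of 5.16 ± 0.39. Psmb9 minus Psmb6 was higher by 6.45, 4.24 and 4.71 on these days, with a mean of 5.14 ± 0.39. Psmb10 minus Psmb7 was higher by 4.00, 3.03 and 1.97, with a mean of 3.00 ± 0.35. All 3 passed, with limma adjusted p of 0.000153 for Psmb8 minus Psmb5, 0.000142 for Psmb9 minus Psmb6 and 0.000976 for Psmb10 minus Psmb7. The shift was smaller in the Psmb10 pair on every day, although the difference between pairs was not tested.

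The other members, which form the alpha rings, the structural beta positions and the regulatory cap that recognises and unfolds substrates, held no gene that was called higher. Of the 37 members outside the 5 immune genes, Psmc3ip included, 0 were called higher and 5 lower in CTL tumours, with a median of -0.18, beside the share of 21.5% lower among all genes. The alpha ring (7 genes) had a median of -0.16 and the structural beta subunits (4 genes) one of 0.08, with none called. The 6 ATPases of the cap, which unfold substrates, were all below 0, and 1 of them fell: Psmc4, by 0.39 ± 0.12 (limma adjusted p = 0.0447). Of 8 lid subunits, 2 fell: Psmd6 by 0.68 ± 0.19 (limma adjusted p = 0.0273) and Psmd14, the enzyme that removes ubiquitin chains from substrates, by 0.49 ± 0.15 (limma adjusted p = 0.0414). Psme4, an alternative cap known for its role in sperm, fell by 0.58 ± 0.14 (limma adjusted p = 0.0163), and Psme3, a cap of the nucleus, differed by -0.04 and was not called. Psmc3ip fell by 1.01 ± 0.16 (limma adjusted p = 0.00355). The base scaffold and ubiquitin receptor genes Psmd1, Psmd2 and Psmd4 and the assembly chaperones Psmd5, Psmd9 and Psmd10 were all below 0, and none was called.

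These lower values depend on the scaling and on few arrays. Without Psmc3ip, the median over the other 36 members was -0.17, and it became -0.44 with normexp, -0.04 with quantile normalization and -0.04 without day 5. In the 37 genes the median same-day difference was -0.13 on day 3, -0.46 on day 5 and -0.09 on day 7, and the CTL array of day 5 is the one with the lowest share of spots above background. Without that array Psmc3ip alone was called lower. In CTL tumours that also received IgG, 0 of the 37 were called lower than in untreated tumours, with Psmc3ip at -0.54 (limma adjusted p = 0.0510). The share of all genes called lower in that comparison was 11.2%.

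**Figure D2:**
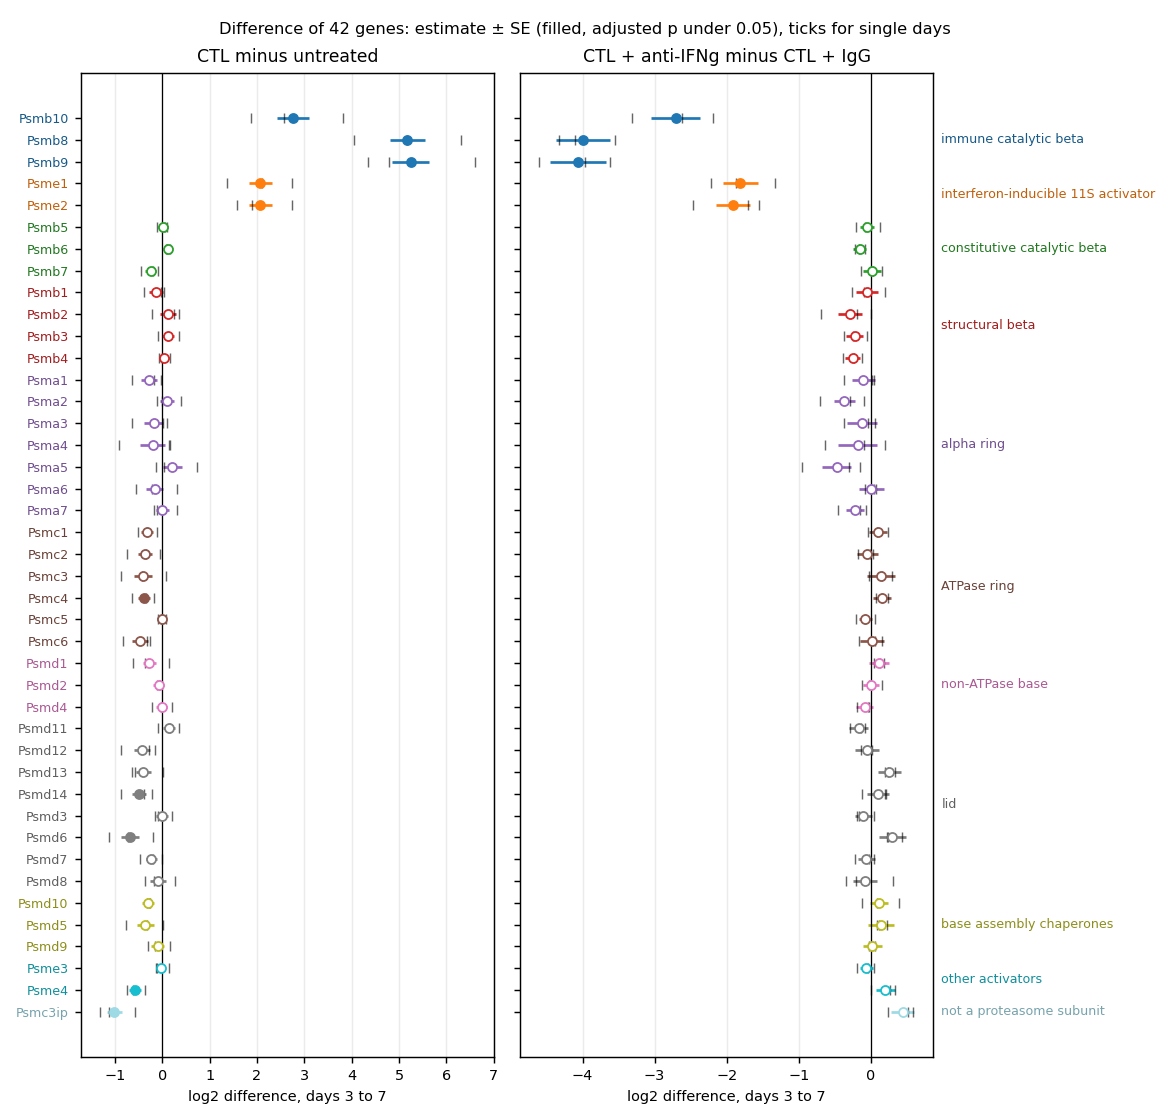
Log2 differences of 42 genes over days 3, 5 and 7, for CTL minus untreated tumours (left) and CTL + anti-IFNg minus CTL + IgG tumours (right), by role. Circles are limma estimates with SE, filled where adjusted p is under 0.05, and ticks are single days. The 5 immune genes lie between 2.07 and 5.25 on the left and between -4.07 and -1.81 on the right, and the other 37 between -1.01 and 0.21 on the left and between -0.47 and 0.45 on the right.

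Blocking interferon gamma was compared with IgG, both given with CTLs. Psmb8 had levels of 2.64, 2.74 and 1.14 in anti-IFNg tumours on days 3, 5 and 7, against 6.75, 6.28 and 5.46 in IgG tumours. Psmb9 had 2.71, 2.98 and 1.70 in anti-IFNg tumours, against 7.32, 6.60 and 5.67 in IgG tumours. Psmb10 had 4.62, 4.55 and 4.14 in anti-IFNg tumours, against 7.94, 7.16 and 6.33 in IgG tumours. The highest anti-IFNg array lay below the lowest IgG array in each of the 3 genes, and the share of all genes that do so is not given. The activators showed the same order. Psme1 had 4.88, 4.90 and 4.52 in anti-IFNg tumours, against 7.10, 6.77 and 5.85 in IgG tumours. Psme2 had 5.07, 5.36 and 4.89 in anti-IFNg tumours, against 7.54, 7.07 and 6.44 in IgG tumours.

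All 5 genes fell with the antibody: Psmb9 by 4.07 ± 0.39, Psmb8 by 3.99 ± 0.37, Psmb10 by 2.71 ± 0.34, Psme2 by 1.91 ± 0.24 and Psme1 by 1.81 ± 0.25. The limma adjusted p was 0.00135 for Psmb9, 0.00129 for Psmb8, 0.00346 for Psmb10, 0.00333 for Psme2 and 0.00445 for Psme1. No other member was called lower and 0 were called higher, beside shares of 6.03% lower and 6.70% higher among all genes. The median of the other 37 was -0.05, against 0.05 over all genes. Psmb5 differed by -0.05 (95% confidence interval -0.28 to 0.18), Psmb6 by -0.16 (-0.36 to 0.05) and Psmb7 by 0.02 (-0.26 to 0.29). The pairs passed as well: Psmb8 minus Psmb5 was lower with the antibody, at -3.94 ± 0.39, Psmb9 minus Psmb6 at -3.91 ± 0.39 and Psmb10 minus Psmb7 at -2.73 ± 0.35, with limma adjusted p of 0.00153, 0.00146 and 0.00355. In a fit that gives the CTL arm 1 effect for all days, day 1 included, the estimates were the same but all 5 genes had adjusted p = 0.0548. Without day 5, Psmb8 alone passed.

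With the antibody, 4 of the 5 genes were above the untreated tumours on each day, Psmb8 and Psmb9 by more than the other immune genes. Of the other 37 members, 7, 8 and 35 were above untreated tumours on days 3, 5 and 7. Their median on day 7 was 0.36, where Psme1 was at 0.18 and Psme2 at 0.20. Over all 16693 genes, 7820, 7624 and 7536 were above 0 on these days. Relative to untreated tumours, Psmb8 differed in anti-IFNg tumours by 2.10 on day 3, 0.82 on day 5 and 0.85 on day 7, and Psmb9 by 1.94, 0.92 and 0.88. Their means were 1.25 ± 0.37 or 2.39-fold for Psmb8 (95% confidence interval 0.40 to 2.11) and 1.25 ± 0.39 or 2.37-fold for Psmb9 (0.34 to 2.15), higher on 3 of 3 days. The limma adjusted p was 0.521 for Psmb8 and 0.541 for Psmb9, so neither was called, and 0 members were called in this comparison. Over all genes, 0.156% were called higher and 0.00599% lower. Psmb10 at 0.29, Psme1 at 0.35 and Psme2 at 0.28 had intervals that include 0, and Psmb10 was below untreated on day 7 by 0.05. This comparison shares its arrays with the preceding ones.

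**Figure D3:**
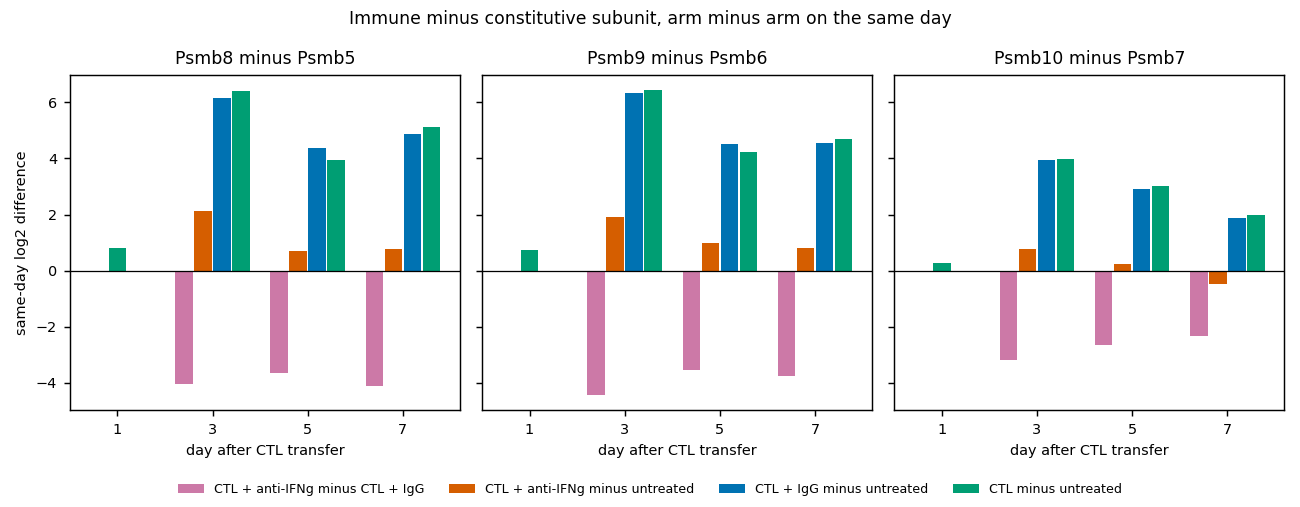
Same-day log2 difference between arms of the within-array value Psmb8 minus Psmb5, Psmb9 minus Psmb6 and Psmb10 minus Psmb7; each bar is 1 array minus another. On days 3 to 7, CTL + IgG and CTL tumours exceed untreated tumours by 1.88 to 6.45, CTL + anti-IFNg tumours lie below CTL + IgG tumours by at least 2.35, and the bars of CTL on day 1 reach at most 0.82.

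IgG tumours were also set against tumours given CTLs alone, which asks what the control antibody did. Relative to CTLs alone, IgG tumours differed by 0.07 in Psmb8, 0.06 in Psmb9, 0.24 in Psmb10, 0.08 in Psme1 and 0.12 in Psme2. No member was called, and over all genes 0% were called higher and 0.0120% lower. Of the other 37 members, 36 were above 0, with a median of 0.26 against 0.03 over all genes. With normexp, and without Psmc3ip, that median was 0.54 against -0.07 over all genes. Same-day differences of the 37 were above 0 in 36 on day 3, 30 on day 5 and 35 on day 7. Over all 16693 genes, 9387, 8009 and 9406 were above 0 on these days. Relative to untreated tumours, which is a comparison added after the values were seen, IgG tumours were higher by 5.25 ± 0.37 in Psmb8, 5.31 ± 0.39 in Psmb9, 3.00 ± 0.34 in Psmb10, 2.16 ± 0.25 in Psme1 and 2.19 ± 0.24 in Psme2. These 5 and no others of the members were called higher, where 7.58% of all genes were. The untreated arrays are the same ones as in the CTL comparison.

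On day 1, before any antibody array exists, the immune genes differed less between the arms. Psmb8 had 2.10 in CTL tumours and 1.31 in untreated tumours. Psmb9 had 2.43 in CTL tumours and 1.73 in untreated tumours. For Psmb10, Psme2 and Psme1 the CTL array was above the untreated one by 0.31, 0.23 and 0.12. All 5 were above 0, while 14 of the other 37 members were, with a median of -0.01. Those 37 ranged from -0.10 to 0.065, and 8413 of all 16693 genes were above 0. The test of the CTL difference on days 3 to 7 against that on day 1 passed for Psmb9, at 4.55 ± 0.79 (limma adjusted p = 0.0443), and for Psmb8, at 4.37 ± 0.74 (limma adjusted p = 0.0419). These were the 2 members called higher, beside 0.857% of all genes, and 0 were called lower, beside 0.180%. Psmb10 at 2.45, Psme1 at 1.95 and Psme2 at 1.85 did not pass, with limma adjusted p of 0.169, 0.136 and 0.139. Day 1 is a single pair of arrays, and leaving out day 3, day 5 or day 7 ended both calls.

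The 5 genes were lower on days 5 and 7 than on day 3 in both arms given CTLs without anti-IFNg. From day 3 over day 5 to day 7, Psmb8 had 6.75, 6.28 and 5.46 in IgG tumours and 6.85, 5.96 and 5.46 in CTL tumours. The same order of days, highest on day 3 and lowest on day 7, held in both arms for Psmb9, Psmb10, Psme1 and Psme2. The order was not tested, since each point is 1 array. In untreated tumours the highest of these days was day 5 for all 5 genes. In anti-IFNg tumours it was day 5 for Psmb8, Psmb9, Psme1 and Psme2 and day 3 for Psmb10.

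Some genes have further probes, with mixed results. The other Psmb8 probe differed by 5.07 between CTL and untreated tumours and by -3.94 between anti-IFNg and IgG tumours, close to the 5.17 and -3.99 of the probe used. The other Psme2 probe gave 2.06 and -1.97, against 2.07 and -1.91. Psmd14 has another probe, well above background on 1 array, that gave 2.85 between CTL and untreated tumours where the other 2 gave -0.49 and -0.53. Of other probes well above background on every array, that of Psmd2 gave -0.51 where the one used gave -0.08, that of Psmc5 -0.27 against -0.01 and that of Psmb3 -0.08 against 0.12. Psme4, which was called lower, has such probes at -0.77 and at 0.115, where the one used gave -0.58. For Psmc4, also called lower, the other probe gave -0.51 against -0.39. That of Psmc2 gave 0.21 against -0.37.

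By position, the immune genes lie in 3 places. The probes of Psmb9 and Psmb8 are 18.5 kb apart on chromosome 17 (chr17:33792517-33792576 and chr17:33811038-33811097, build mm8 of the files), and in the RefSeq gene table Tap1 lies between these genes. Those of Psme1 and Psme2 are 6.14 kb apart on chromosome 14 (chr14:54535428-54535487 and chr14:54541569-54541628). The probe of Psmb10 is alone on chromosome 8 (chr8:108824906-108824965). Psmb5, which hardly varied, also lies on chromosome 14, with its probe 967 kb from that of Psme1. Exon positions of the probes were not analysed here.

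RefSeq promoter windows (GRCm38.p6, 250 bases before to 50 after a gene's start) were given for 36 of the 43 genes. Several motifs were searched on both strands. Gamma-activated sites, TTCNNNGAA, are known elements of promoters that interferon gamma switches on, and interferon regulatory factors are known to bind interferon-stimulated response elements, read here as GAAA and GAAA with 2 bases between, or TTTC and TTTC on the other strand. Antioxidant response elements, TGACNNNGC or GCNNNGTCA, are known to bind NFE2L1, which drives constitutive proteasome genes. Psmb8 and Psmb5 are shown because they code for the 2 alternatives at the same position of the core, one of which was 36.0-fold higher in CTL tumours while the other was not called. Capitals mark TTCNNNGAA in Psmb8 and TGACNNNGC in Psmb5, and the bases run up to the gene's start, on the plus strand of chr17:34197945-34198194 for Psmb8 and the minus strand of chr14:54617996-54618245 for Psmb5.

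Psmb8: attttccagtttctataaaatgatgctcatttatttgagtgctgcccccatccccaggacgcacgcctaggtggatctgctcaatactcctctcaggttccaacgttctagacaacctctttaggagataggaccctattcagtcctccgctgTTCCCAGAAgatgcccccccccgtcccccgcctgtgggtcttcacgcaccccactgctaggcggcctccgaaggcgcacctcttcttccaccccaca

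Psmb5: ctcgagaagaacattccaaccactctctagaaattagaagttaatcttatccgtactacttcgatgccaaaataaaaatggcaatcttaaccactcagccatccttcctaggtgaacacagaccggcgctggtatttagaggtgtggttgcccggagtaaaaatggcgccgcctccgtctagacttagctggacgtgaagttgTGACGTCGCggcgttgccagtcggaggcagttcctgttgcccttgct

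The match of Psmb8, TTCCCAGAA, lies 97 to 89 bases before the start, that of Psmb5, TGACGTCGC, 47 to 39 bases before it, and neither overlaps a match of the other motifs searched. TTCNNNGAA was in 1 of the 5 immune genes, Psmb8, in 1 of 30 other members, Psmd2, and in 9.55% of all 27025 genes with windows. The response element letters were in 1 of the 5 immune genes, Psme1 (TTTCGCTTTC, 9 to 18 bases after the start). They were in 3 of the 30 others, Psmb3, Psmd4 and Psmd9, and in 3.99% of the 27025 genes. The antioxidant element letters were in 0 of the 5 immune genes, in 6 of the 30 others and in 13.99% of the 27025 genes. The letters CCAAT or ATTGG were in 1 of the 5, 12 of the 30 and 41.06% of the 27025 genes. NF-kappaB letters were GGG and TTTCC with 2 bases between, or the reverse complement. They were in 0 of the 5, 0 of the 30 and 1.895% of the 27025 genes. These matches describe letters in short windows, and Psmb3, Psmd2, Psmd4 and Psmd9, which hold interferon-type letters, were not called in either main comparison.

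Genes around the proteasome were read from 3 lists, beside shares over all genes of 10.3% higher and 21.5% lower with CTLs and 6.70% higher and 6.03% lower with the antibody. Of 14 regulators tested, 7 were called higher in CTL tumours and 0 lower, with a median of 0.67. Irf9 rose by 1.82, Irf8 by 5.45 and Irf1 by 3.87, with limma adjusted p of 0.000437 to 0.00168. These factors carry interferon signals to gene promoters. With the antibody 6 of the 14 fell and 0 rose, with Irf9 at -1.66, Irf8 at -4.56 and Irf1 at -3.62. Nfe2l1 differed by 0.12 between CTL and untreated tumours and by -0.03 between anti-IFNg and IgG tumours, and was called in neither.

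The next list holds genes linked to the peptide supply of class I molecules. Of 15 tested, 8 were higher and 4 lower in CTL tumours, with a median of 1.43. The 4 lower ones were Canx at -0.55, Calr at -0.36, Thop1 at -0.68 and Blmh at -0.395. B2m, the light chain of class I, rose by 2.06, Ubd, a ubiquitin-like tag for degradation, by 8.25, and the peptide transporter genes Tap2 and Tap1 by 3.71 and 4.00. With the antibody 8 of the 15 fell and 2 rose, with B2m at -1.63, Ubd at -6.02, Tap2 at -2.96 and Tap1 at -3.07. Of 18 assembly and accessory factors, 0 were higher and 7 lower in CTL tumours, with a median of -0.32. Vcp, which extracts tagged proteins from complexes, fell by 0.55, the shuttle factor Ubqln1 by 0.52, the ligase Ube3c by 0.34 and the deubiquitinase Uchl5 by 0.54. None of the 18 was called with the antibody, and the median was 0.08. Pomp, which is needed to assemble new cores, differed by 0.11 with CTLs and by -0.21 with the antibody and was called in neither.

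**Figure D4:**
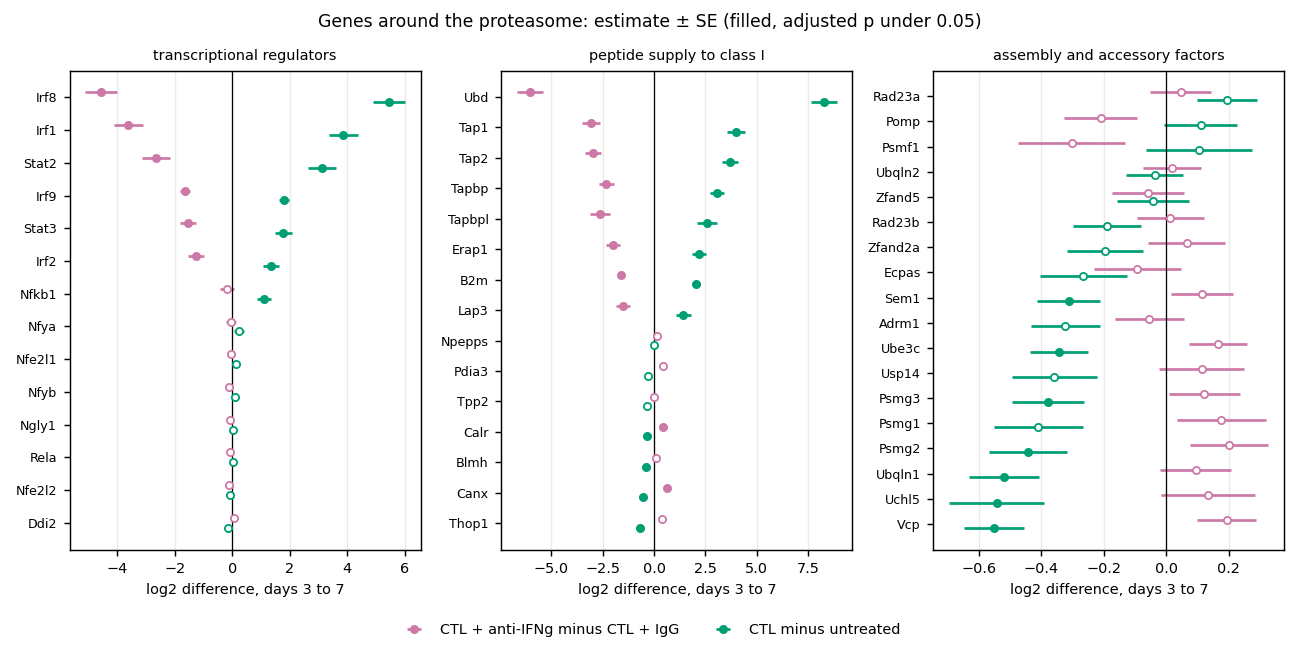
Log2 differences over days 3, 5 and 7 for regulators, class I supply genes and assembly or accessory factors, as CTL + anti-IFNg minus CTL + IgG and CTL minus untreated tumours; circles are limma estimates with SE, filled where adjusted p is under 0.05. In the first 2 panels every gene called in both comparisons has opposite signs in them; the scale of the last panel is narrower, with values from -0.55 to 0.19 for CTL minus untreated.

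Markers of leukocytes moved with the immune genes. All 10 T cell markers and 9 of 10 pan-leukocyte markers were higher in CTL than in untreated tumours, as were 11 of 12 macrophage and monocyte markers, 0 of 10 melanocyte markers, 3 of 4 keratinocyte markers and 0 of 4 muscle markers. With the antibody, 7 of 10 T cell, 9 of 10 pan-leukocyte and 9 of 12 macrophage markers were lower, and 0 of 10 melanocyte, 0 of 4 keratinocyte and 0 of 4 muscle markers. The summed signal of the T cell list, relative to the 75th percentile, was 2.54 to 4.49 in anti-IFNg tumours, 4.96 to 11.9 in IgG tumours, 6.72 to 13.9 in CTL tumours and 1.65 to 2.47 in untreated tumours of days 3 to 7. That of the pan-leukocyte list was 41.7 to 46.7 in anti-IFNg tumours, 66.0 to 96.2 in IgG tumours, 66.4 to 99.0 in CTL tumours and 38.6 to 42.0 in untreated tumours. That of the macrophage list was 41.3 to 70.5 in anti-IFNg tumours, 67.0 to 128 in IgG tumours, 90.8 to 126 in CTL tumours and 24.7 to 28.0 in untreated tumours. Such sums weigh the brightest genes most. The mean log2 level of the pan-leukocyte list was -0.87 to -0.02 in anti-IFNg tumours and 0.87 to 1.68 in IgG tumours. It was 1.31 to 1.80 in CTL tumours and -1.27 to -1.18 in untreated tumours. The part of leukocytes in the change of the immune genes was not tested, and in bulk tumours more cells with a transcript and more transcript per cell cannot be told apart.

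Some T cell transcripts were higher in anti-IFNg than in untreated tumours. Over all genes, 0.156% were called higher and 0.00599% lower in this comparison. Of 10 T cell markers, 2 were called higher. Cd8a was higher by 4.03 (limma adjusted p = 0.00281) and Cd3d by 4.28 (limma adjusted p = 0.0356), and 1 of the 10 pan-leukocyte markers, Ptprc, by 1.43 (limma adjusted p = 0.0479). The other 8 T cell markers were not called, with Cd3e at -0.35, Thy1 at -0.12 and the rest from 0.43 to 1.91. In anti-IFNg tumours 8 or 9 of the 10 T cell markers were well above background, against 4 to 6 in untreated tumours. In the same comparison 0 of 12 macrophage, 0 of 14 regulator and 0 of 15 class I supply genes were called. Their medians were 0.48, 0.04 and 0.04, beside 0.84 for the T cell and 0.89 for the pan-leukocyte list. None of the 5 immune members was called either, with values from 0.276 to 1.255. Among 16693 genes ordered by this difference, Psmb8 was number 138 from the top and Psmb9 number 141. Psme1 was number 969, Psmb10 number 1202 and Psme2 number 1237.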

How the data were processed

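Per the file headers, spots were quantified with Agilent Feature Extraction 9.5.3.1, given as 9.5 in the submitters' processing notes. Spot intensity is what the deposited scanner files contain, and the background-subtracted processed signal was used. A deposited log2 table of the authors holds the same arrays. Its columns correlated with the scanner values at r = 1 over 41174 probes and differed by a constant per array, from 0.0329 to 0.073. The medians of the columns ran from -3.54 to -3.14. It served as an alternative.

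Log2 processed signal was set relative to the array's 75th percentile, outlier spots were left out, and 16693 genes with a probe well above background on at least 3 arrays were kept. Of the 66 member probes, 57 matched a RefSeq accession and no name changed. limma 3.58.1 in R 4.3.3 fitted all 14 arrays with arm, day and a separate term for CTLs on day 1, two-sided, with Benjamini-Hochberg adjustment at 0.05, and the script was tested on simulated data. That separate term was chosen because earlier results of these data showed a smaller day 1 difference, and a single CTL effect is an alternative. Members, lists and the rule for genes named (the 8 catalytic and activator genes, members past the threshold, and up to 4 genes of a list by smallest p) were chosen with earlier results of these data known. A gene of the regulator list is not reported here.

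Day equals slide, so each same-day difference is also a difference within a slide, and since each arm has its own position on the slides, arm and position cannot be told apart. Samples are paired by the day in the labels. Of 18 same-day pairs, 12 deviated together with r over 0.1 (range -0.05 to 0.52). Precision is limited by the number of arrays: p-values measure how same-day differences of pooled tumours vary over 3 days and not the spread between mice. Probe positions are in build mm8, per the file headers.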

Additional observations from a re-analysis of the deposited data

Results flagged for a closer look

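Psmb8 and Psmb9 were singled out because their CTL difference on days 3 to 7 exceeded that on day 1 in a test of the difference itself. That term was fitted because earlier results of these data had shown a smaller day 1 difference, so the test is no independent support. Day 1 is 1 array per arm, and leaving out day 3, day 5 or day 7 ended both calls. For Psmb8 the excess was 4.37 (limma adjusted p = 0.0419), with same-day differences of 0.80 on day 1 and 6.30, 4.04 and 5.17 on days 3, 5 and 7. For Psmb9 it was 4.55 (limma adjusted p = 0.0443), with 0.69 on day 1 and 6.61, 4.35 and 4.79 on days 3, 5 and 7. The summed signal of the T cell list on day 1 was 2.05 in CTL tumours and 1.85 in untreated tumours. The part of cell number in the difference between days was not tested. No array stood apart within its arm by Dixon's criterion in 28 tests, which can be made only for the CTL and untreated arms.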

How the results depend on the processing

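Of 712 values of single genes under the alternatives, 654 kept their direction and their side of the threshold, 24 lost the call, 4 gained one and 30 changed sign. Psmb8, Psmb9, Psmb10, Psme1 and Psme2 kept their direction against untreated tumours with CTLs alone and against IgG with the antibody in every alternative run. With 1 CTL effect for all days the antibody called 0 members lower instead of 5, with the pairs at -3.94 (Psmb8 minus Psmb5), -3.91 (Psmb9 minus Psmb6) and -2.73 (Psmb10 minus Psmb7), none of them called. Leaving out 1 day or the CTL array of day 5, the last added after the data were seen, gave 1 to 5 members lower and 0 to 1 higher with the antibody, 3 to 5 higher with CTLs and 3 to 6 called with IgG against untreated. Those fits gave pair values of -4.10 to -3.65 (Psmb9 minus Psmb6) and -2.92 to -2.50 (Psmb10 minus Psmb7) with the antibody and 2.50 to 3.51 (Psmb10 minus Psmb7) with CTLs. Without day 5, Psmb10 minus Psmb7 at -2.77 and 2.98 and Psmb9 minus Psmb6 at -4.10 (adjusted p = 0.0588, with the antibody) were not called, and the cause was not tested. The 5 members lower with CTLs became 3 with median centring, quantile normalization or the authors' log2 table, 2 without the filter, 14 with normexp, 1 with 1 CTL effect, 0 with only the arms compared, 10 without the day block and 0 to 10 on leaving out a day or that array. The cause was not tested. The 2 members whose CTL difference changed after day 1 became 0 without the filter or with only the arms compared, 6 without the block and 0 to 1 on leaving out a day or that array. Without the block the other counts of members stayed within 1.5 times, while all-gene calls became 1515 instead of 173 in the change after day 1, 3 instead of 27 for the antibody against untreated and 6 instead of 2 for IgG against CTLs alone. Median centring moved the all-gene median with CTLs to -0.22, normexp to 0.07 and no filter to 0.15, against -0.10. All-gene calls with CTLs were 5309, and 1107, 656 and 5080 without day 3, 5 and 7, 3096 without the CTL array of day 5, 836 with only the arms compared and 1832 with 1 CTL effect. With the antibody they were 2124, and 641 with normexp, 1154 without the filter, 959 with only the arms compared, 405, 50 and 1365 without day 3, 5 and 7, and 2 with 1 CTL effect.

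Signs turned only for small values. With CTLs, Psmb5 was -0.095 under median centring, -0.023 without the block, -0.276 with normexp and -0.033 to 0.079 on leaving arrays out (-0.025 and -0.007 without day 5 and day 7), and Psmb6 was -0.212 with normexp. In the change after day 1, Psmb5 was -0.032, -0.122 and -0.277 under the same 3 settings and -0.014 to 0.097 on leaving arrays out (-0.007 without day 5), and Psmb6 was -0.173 with normexp. With the antibody, Psmb5 was 0.039 with median centring and -0.140 to 0.024 on leaving arrays out, and Psmb7 was -0.021 with quantile normalization, 0.000 with the authors' table and -0.052 to 0.097 on leaving arrays out. For the antibody against untreated, Psmb6 was -0.003 to 0.062, Psmb7 -0.051 to 0.201 on leaving arrays out, and Psmb10 -0.020 with 1 CTL effect. For IgG against CTLs alone, quantile normalization gave -0.012 for Psmb5, -0.001 for Psmb6, -0.013 for Psmb8 and -0.002 for Psmb9, and leaving arrays out gave -0.005 to 0.137 for Psmb6, -0.269 to 0.159 for Psmb8 (-0.047 without day 5) and -0.204 to 0.128 for Psmb9.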

Other observations

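Psma8 was too dim to test, and its levels are given as values. They were -6.19, -5.55 and -6.48 in anti-IFNg tumours on days 3, 5 and 7, -4.08, -4.55 and -3.67 in IgG tumours, -6.20, -4.63 and -6.20 in CTL tumours and -6.60, -6.44 and -5.89 in untreated tumours. Psmd4 has a second, dimmer probe, well above background on 13 arrays, that differed by -0.93 between CTL and untreated tumours and by 0.52 between anti-IFNg and IgG tumours, where the probe used gave -0.01 and -0.09. Psmc3ip, which is no subunit, gave -1.01 and -1.14 with its 2 probes between CTL and untreated tumours, and 0.45 and 0.56 between anti-IFNg and IgG tumours.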
